A study of Mus musculus with 12 samples.

Results

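The genes described here encode the constitutive 26S proteasome and the proteins that regulate or assemble it. Their transcripts were sequenced in dendritic cells of the mouse. They were taken as every row of the deposited expression table whose mouse symbol starts with Psma, Psmb, Psmc, Psmd, Psme, Psmf or Psmg followed by a digit. The 3 interferon-inducible subunits Psmb8, Psmb9 and Psmb10 were left out of the group and are given beside it. This rule found 46 of the 11786 genes in the table. Of these, 44 encode proteasome subunits, activators, inhibitors or assembly chaperones. The other 2 match by symbol only: Psmc3ip acts in meiotic recombination, and Psme3ip1 encodes a protein that binds the activator Psme3. Psmb11, the thymus form of a catalytic subunit, was not analysed here.

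The cells were dendritic cells grown from mouse bone marrow, from mice labelled Ythdf1-/- and from wild-type mice. Ythdf1 is a cytoplasmic protein that binds mRNA carrying N6-methyladenosine. Cells labelled "lysate" had spent a night in culture with necrotic B16-OVA, a melanoma line of the mouse that expresses ovalbumin, before the dendritic cells were purified, while cells labelled "DC alone" are called untreated below. The 4 groups were Ythdf1-/- with lysate, Ythdf1-/- untreated, wild type with lysate and wild type untreated, with 2 libraries each. How the Ythdf1-/- allele was made and the ages of the mice are not in the labels.

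The 26S proteasome is the main protease for ubiquitin-tagged proteins in the cytosol and nucleus. Its 20S core is a barrel of outer alpha rings and inner beta rings, and the beta subunits Psmb5, Psmb6 and Psmb7 carry the active sites. A 19S regulatory particle, made of a ring of ATPases (Psmc genes) and a set of non-ATPase subunits (most Psmd genes), binds ubiquitin chains, removes them, unfolds the substrate and feeds it into the core. Other caps can replace the 19S particle, among them PA28 alpha-beta (Psme1 and Psme2), PA28 gamma (Psme3) and PA200 (Psme4), and Psmf1 encodes the inhibitor PI31. In dendritic cells the peptides that proteasomes release are a source of ligands for MHC class I, and interferon gamma is known to induce both PA28 alpha-beta and the immunoproteasome subunits that replace Psmb5, Psmb6 and Psmb7.

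All values are log2 levels, read as the regularized log2 that DESeq2 makes from read counts, so that 1 unit is a doubling. No counts were given and the depth of each library is unknown. Library medians over all genes lay between 8.53 and 8.55. Changes are group differences with the standard error of a limma fit over all 8 libraries, and a gene was called where its Benjamini-Hochberg adjusted p over 11785 genes was below 0.05. All 46 genes entered that test, and the lowest mean level over the 8 libraries was 4.20. The transcript of Ythdf1 itself did not pass the test between genotype labels, at 9.51 and 9.46 in the Ythdf1-/- libraries with lysate against 9.72 and 9.58 in wild type with lysate, and at 9.53 and 9.43 in untreated Ythdf1-/- libraries against 9.58 and 9.43 in untreated wild type. Genotype is therefore given as labelled throughout.

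Marker transcripts of other cell types moved with the groups. Of 12 melanocyte markers 6 were measured, and 5 of these were higher with lysate in each genotype. Dct, a pigment synthesis enzyme, changed by 1.31 ± 0.09 in Ythdf1-/- labelled cells and by 1.13 ± 0.09 in wild-type cells, and Tyrp1, a melanosome protein, by 1.24 ± 0.09 in Ythdf1-/- labelled cells and by 1.04 ± 0.09 in wild-type cells. The log2 of the summed melanocyte levels lay between 10.42 and 10.48 in Ythdf1-/- labelled cells with lysate and 9.84 and 10.00 without, and between 10.48 and 10.58 in wild-type cells with lysate and 10.04 and 10.16 without. Of 9 measured neutrophil markers, 8 were lower in the Ythdf1-/- labelled cells in both treatments, and their summed level ran from 12.53 to 12.71 there and from 13.76 to 14.14 in wild type. Of 8 macrophage and monocyte markers, all measured, 6 were lower in untreated and 3 in lysate-treated Ythdf1-/- labelled cells than in wild type. Called or not, 7 of these 8 had a negative difference in each treatment. With lysate 2 neutrophil markers fell in Ythdf1-/- labelled cells and 3 in wild type. Of the macrophage and monocyte markers, 1 rose and 0 fell with lysate in Ythdf1-/- labelled cells, and 1 rose and 4 fell in wild type. All 10 dendritic cell markers were measured, of which 7 fell with lysate in Ythdf1-/- labelled cells and 6 in wild type. Between genotypes 3 were higher and 1 lower in untreated Ythdf1-/- labelled cells than in untreated wild type, and 5 were higher and 0 lower with lysate. The dendritic cell markers had a summed level of 17.06 in both Ythdf1-/- libraries with lysate against 17.45 and 17.55 without, and of 17.0 and 17.03 in wild type with lysate against 17.38 and 17.51 without. None of the 4 B cell, 5 T and NK cell or 4 erythroid markers was analysed here. The part of these differences in the proteasome results was not tested, and in bulk RNA fewer cells of a type and less RNA per cell cannot be told apart.

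In untreated wild-type cells the median of each class of structural subunits stood above the medians of the 19S and 20S assembly chaperones (6.80 and 6.88). The ranges overlapped, with the chaperone Psmg4 above the subunits Psmc6, Psmd11, Psmd12 and Psmd14. On the log2 scale per kilobase of transcript, the 7 alpha subunits of somatic cells (Psma1 to Psma7) ran from 8.83 (Psma2) to 11.13 (Psma7), with a median of 10.42. The 7 beta subunits ran from 9.79 (Psmb7) to 10.96 (Psmb6), with a median of 10.10. The ATPases ran from 8.47 (Psmc6) to 10.17 (Psmc1), with a median of 9.46, and the 11 non-ATPase subunits from 8.05 (Psmd11) to 10.47 (Psmd8), with a median of 9.17. Subunits that are incorporated in equal numbers thus differed in transcript level per length by up to 2.30 log2 units within the alpha ring and by 1.17 within the beta ring. These values depend on the length used, a median over annotated transcripts of the gene. Psma2, given 2911 bases, had a level of 10.37 before length was taken into account, above Psma3 (9.83) and Psma5 (9.46). The 19S assembly chaperones Psmd5, Psmd9 and Psmd10 lay between 6.18 and 7.65. The 20S assembly chaperones Psmg1 to Psmg4 lay between 6.50 and 8.80. The widest range was among the activators and the inhibitor, from 6.95 for Psmf1 to 12.30 for Psme2, with Psme1 at 12.01. Psma8, the alpha subunit of testis, was at 3.52 per kilobase.

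The genes called with tumour lysate went in both directions in wild-type cells, and all were lower in Ythdf1-/- labelled cells. In wild-type cells 8 of the 46 genes were called (17.4%, against 21.5% of all genes tested). The 4 that fell were both PA28 alpha-beta genes Psme1 and Psme2, the alpha subunit Psma7 and the 20S chaperone Psmg4. The 4 that rose were the beta subunit Psmb6 and the 19S subunits Psmd1, Psmd12 and Psmd14. In Ythdf1-/- labelled cells 3 of 46 were called (6.52%, against 15.2% of all genes), and these were Psme1, Psme2 and Psma7, all lower. By direction, 0 rose in Ythdf1-/- labelled cells (8.28% of all genes did) and 4 rose in wild type (8.7%, against 10.2% of all genes), and 3 fell in Ythdf1-/- labelled cells (6.52%, against 6.92%) and 4 in wild type (8.7%, against 11.3%). Without a test, both lysate libraries lay above both untreated ones for 13 genes in Ythdf1-/- labelled cells (28.3%, against 28.9% of all genes) and for 22 in wild type (47.8%, against 28.5%), and below them for 18 in Ythdf1-/- labelled cells (39.1%, against 30.2%) and for 6 in wild type (13.0%, against 32.3%). The share called was thus no higher than the background in either genotype. The median change over the 46 genes was -0.03 in Ythdf1-/- labelled cells and 0.09 in wild-type cells, beside -0.0013 in Ythdf1-/- labelled and -0.01 in wild-type cells over all genes. The Ythdf1-/- median was 0.0048 without replicate 1 of the lysate group and 0.02 once the GC content and length trend of each library was taken out. The wild-type median was 0.03 without replicate 2 of the lysate group and 0.04 with that trend taken out. At an unadjusted limma p below 0.05 there were 10 of the 46 genes in Ythdf1-/- labelled cells (3535 of all 11785 genes) and 17 in wild type (4176 of all 11785).

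**Figure D1:**
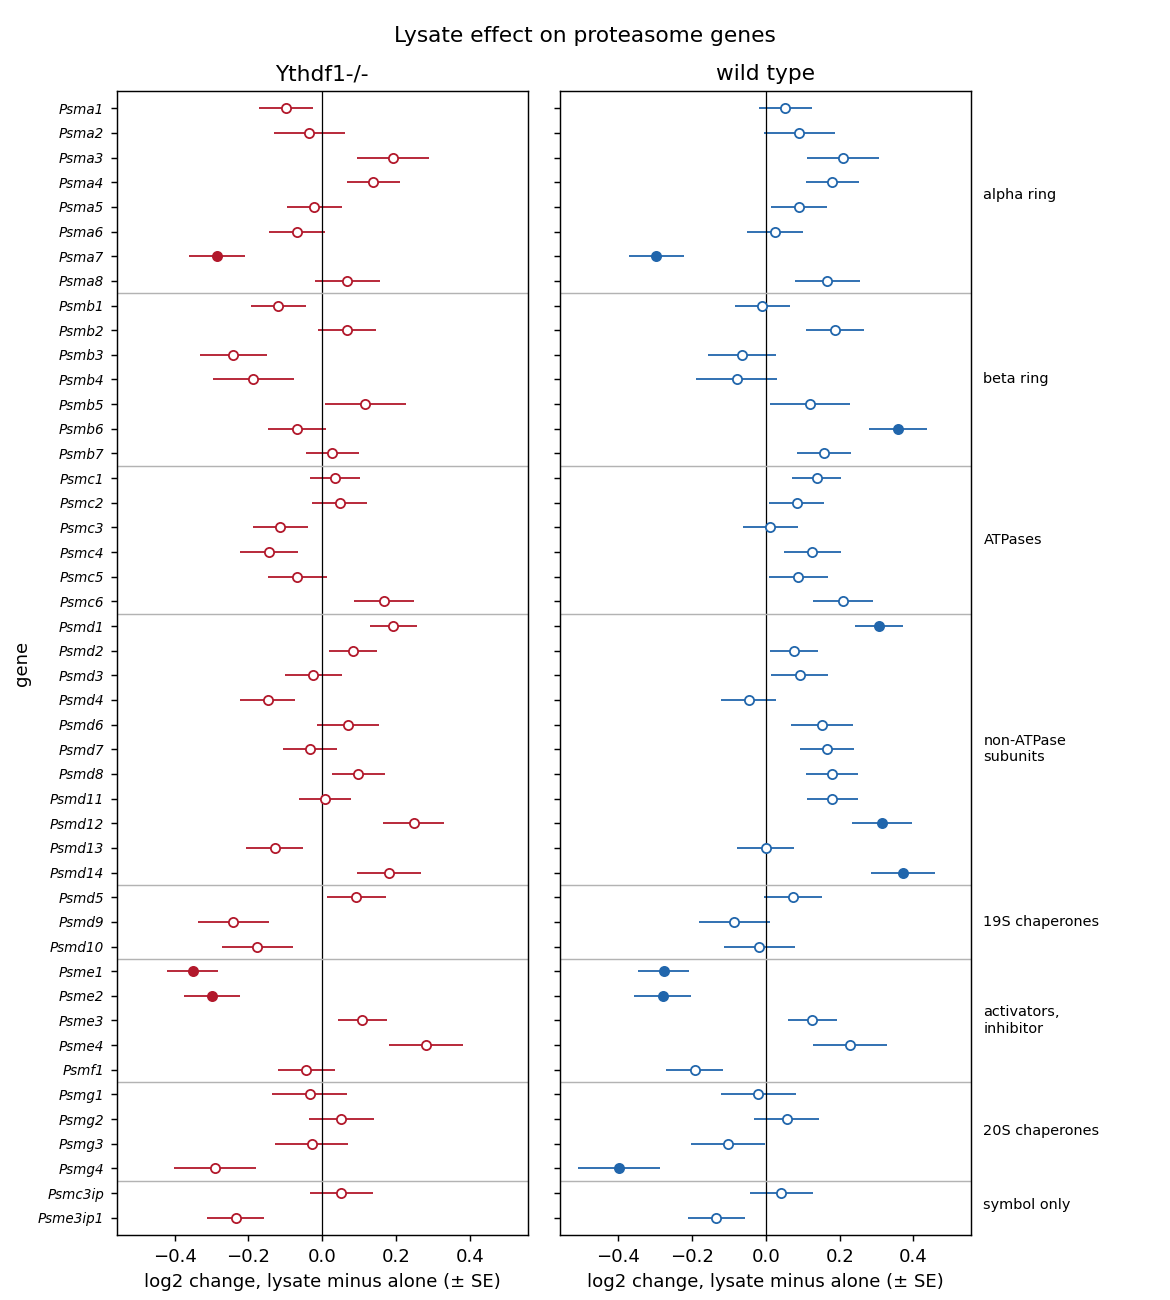
Change with lysate (log2, lysate minus untreated) of each of the 46 genes, by role, in Ythdf1-/- labelled cells (left) and wild-type cells (right). Points are limma estimates, bars are ± 1 standard error (2 libraries per group) and filled points have an adjusted p below 0.05; Psme1, Psme2 and Psma7 are filled on the left of 0 in both panels.

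Averaged over both genotypes, which uses all 8 libraries, 13 of the 46 genes were called (28.3%, against 34.7% of all genes). The 8 that rose were Psma3, Psma4, Psmc6, Psmd1, Psmd8, Psmd12, Psmd14 and Psme4 (17.4%, against 16.5%). The 5 that fell were Psma7, Psme1, Psme2, Psmg4 and Psme3ip1 (10.9%, against 18.2%). The calls of 7 of them, Psma7, Psmd1, Psmd12, Psmd14, Psme1, Psme2 and Psmg4, held under each of the 20 other settings tried for this contrast. The lysate changes in the 2 genotypes, which share no library, had a Pearson r of 0.82 and a Spearman rho of 0.80 across the 46 genes, and 35 of 46 had the same sign. Across all 11785 genes r was 0.75 and rho 0.70, with the same sign in 8910. Genes are not independent replicates, and both changes rest on the same transcripts with their length and base composition.

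**Figure D2:**
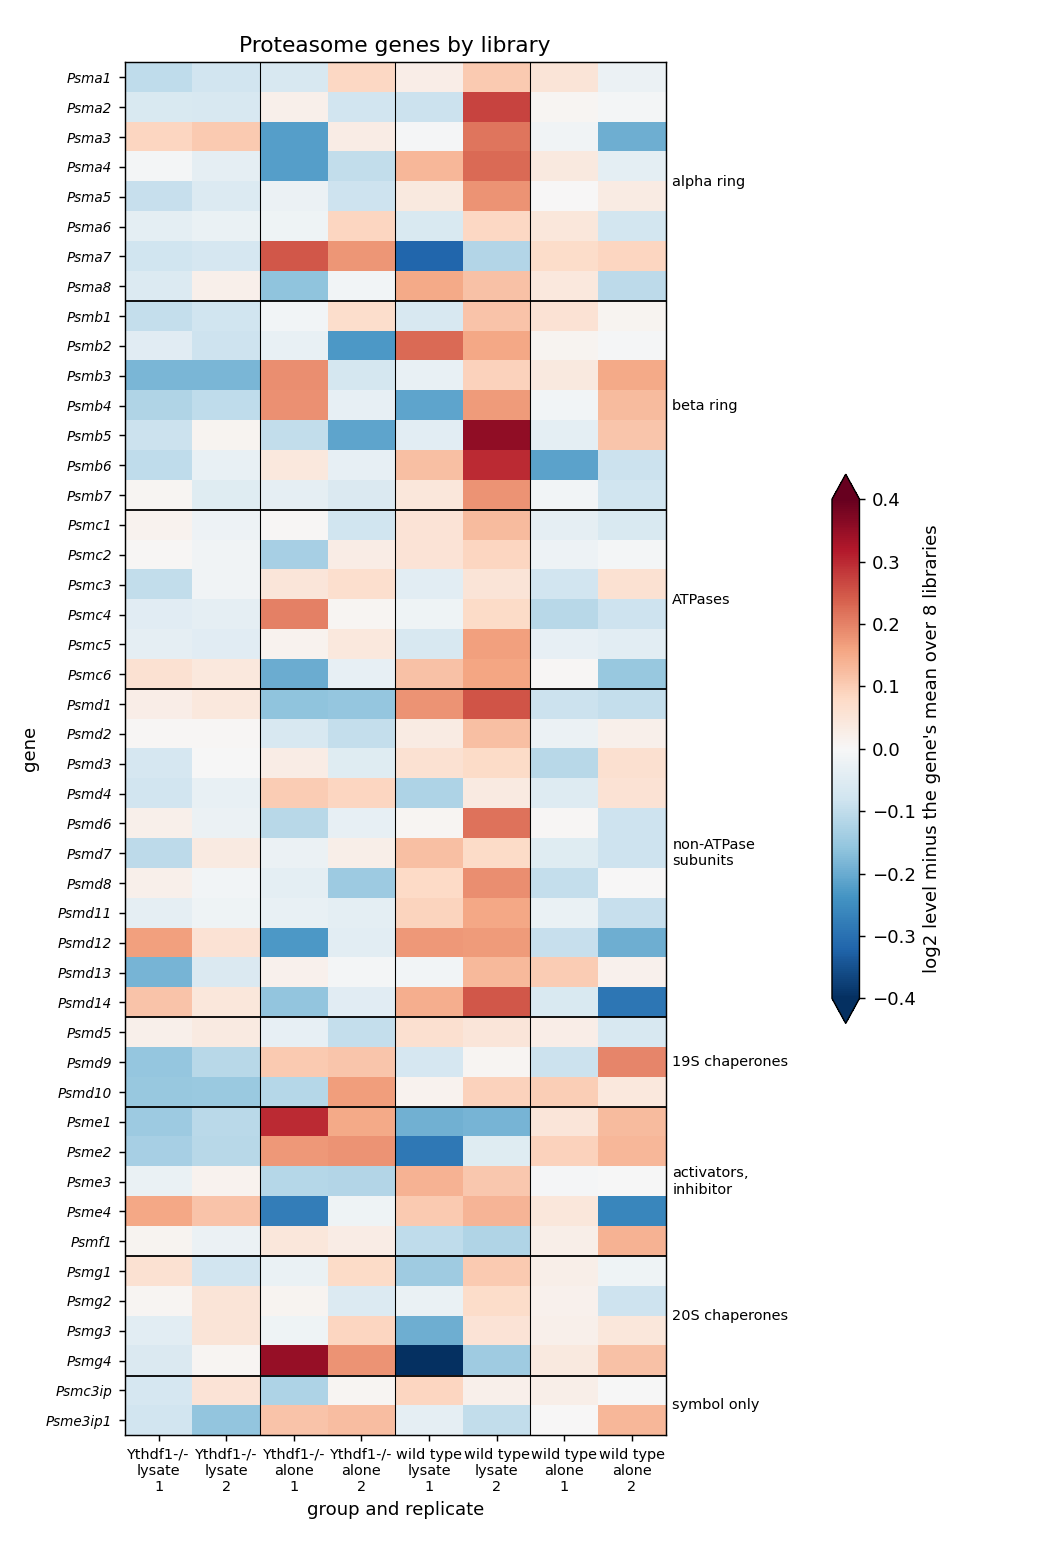
Level of each gene in each of the 8 libraries as the difference from the mean of that gene over all libraries (log2, colour scale from -0.4 to 0.4, arrows mark values beyond), with genes in rows by role and libraries in columns by group. Psme1, Psme2 and Psma7 are blue in the 4 lysate libraries and red in the 4 untreated ones, and replicate 2 of wild type with lysate is red in most rows.

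Both genotypes showed a fall of the transcripts of the PA28 alpha-beta cap, whose subunits form a ring that opens the core without ubiquitin recognition. The protein was not measured. Psme1, the alpha subunit, had levels of 11.93 and 11.97 in Ythdf1-/- labelled cells with lysate and 12.37 and 12.23 without. In wild type it had 11.88 and 11.89 with lysate and 12.12 and 12.20 without. In each genotype both lysate libraries lay below both untreated ones. Psme1 fell by 0.35 ± 0.07 in Ythdf1-/- labelled cells (0.784-fold, limma adjusted p = 0.0042) and its change in wild type was -0.28 ± 0.07 (0.826-fold, adjusted p = 0.0127).

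Psme2, the beta subunit of the same ring, moved in parallel. It had 11.86 and 11.89 in Ythdf1-/- labelled cells with lysate against 12.17 and 12.18 without, and 11.71 and 11.95 in wild type with lysate against 12.09 and 12.13 without. The groups again did not overlap within a genotype. Its change was -0.30 ± 0.08 in Ythdf1-/- labelled cells (limma adjusted p = 0.0187) and -0.28 ± 0.08 in wild type (adjusted p = 0.02). The mouse annotation holds a closely related copy of Psme2, Psme2b, so reads of the 2 genes could have been shared in counting. The wild-type calls of Psme1 and Psme2 were lost when replicate 2 of the untreated group or replicate 1 of the lysate group was left out. In Ythdf1-/- labelled cells the call of Psme1 was lost without replicate 1 of the lysate group, and that of Psme2 without either lysate replicate. Averaged over genotypes both calls remained whichever library was left out, with changes of -0.31 ± 0.05 for Psme1 (adjusted p = 0.000334) and -0.29 ± 0.05 for Psme2 (adjusted p = 0.0013).

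The starts of these 2 genes lie 12.6 kb apart on chromosome 14, and since they moved together their upstream sequences are shown, each as the 250 bases before the start in the RefSeq annotation of build GRCm38.p6, 5′ to 3′ on the strand of the gene. Psme1 lies on the plus strand (chr14:55578244-55578493) and Psme2 on the minus strand (chr14:55591102-55591351). Neither window holds a match to the 4 motifs described with the promoters below, so no base is in capitals.
Psme1: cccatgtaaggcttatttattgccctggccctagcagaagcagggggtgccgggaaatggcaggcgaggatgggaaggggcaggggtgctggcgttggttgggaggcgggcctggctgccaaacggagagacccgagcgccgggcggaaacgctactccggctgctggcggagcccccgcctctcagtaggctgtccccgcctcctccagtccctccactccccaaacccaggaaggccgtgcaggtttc
Psme2: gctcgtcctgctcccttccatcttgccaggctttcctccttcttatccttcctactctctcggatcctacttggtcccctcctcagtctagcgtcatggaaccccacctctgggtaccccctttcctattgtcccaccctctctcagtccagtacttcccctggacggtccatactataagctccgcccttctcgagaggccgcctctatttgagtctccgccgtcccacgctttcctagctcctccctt

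The other caps went the opposite way or did not pass the test. Psme4, which encodes the large cap PA200, had 10.89 and 10.85 in Ythdf1-/- labelled cells with lysate against 10.46 and 10.72 without, and 10.84 and 10.87 in wild type with lysate against 10.78 and 10.48 without. All lysate libraries lay above the untreated ones, and the untreated replicates differed by more than those with lysate. Its change was 0.28 ± 0.10 in Ythdf1-/- labelled cells (limma adjusted p = 0.0781) and 0.23 ± 0.10 in wild type (adjusted p = 0.12). Averaged over genotypes Psme4 rose by 0.25 ± 0.07 (adjusted p = 0.0142), a call lost without replicate 2 of untreated wild type or without either Ythdf1-/- lysate replicate. Psme3, the PA28 gamma subunit of the nucleus, had changes of 0.11 ± 0.07 in Ythdf1-/- labelled cells and 0.13 ± 0.07 in wild type that were not called. Psmf1, the inhibitor, had -0.04 ± 0.08 in Ythdf1-/- labelled cells and -0.19 ± 0.08 in wild type, also not called (adjusted p = 0.743 and 0.0892).

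Transcripts of the immunoproteasome subunits, which assemble with PA28 alpha-beta in immune cells, fell beside Psme1 and Psme2. Psmb10 had 10.55 and 10.67 in Ythdf1-/- labelled cells with lysate against 11.07 and 10.91 without, and 10.48 and 10.72 in wild type with lysate against 10.99 and 11.17 without. Its changes were -0.38 ± 0.09 in Ythdf1-/- labelled cells (limma adjusted p = 0.0156) and -0.48 ± 0.09 in wild type (adjusted p = 0.00313). Psmb9 had -0.22 ± 0.08 (adjusted p = 0.0762) in Ythdf1-/- labelled cells and fell in wild type, with -0.27 ± 0.08 (adjusted p = 0.0275). Psmb8 had -0.26 ± 0.09 in Ythdf1-/- labelled cells (adjusted p = 0.0585) and -0.14 ± 0.09 in wild type (adjusted p = 0.267). Averaged over genotypes all 3 fell, with changes of -0.20 (Psmb8), -0.25 (Psmb9) and -0.43 (Psmb10). The Psmb10 call was lost in Ythdf1-/- labelled cells without replicate 1 of the untreated group or either lysate replicate, and in wild type without replicate 1 of the lysate group. The wild-type call of Psmb9 was lost without replicate 2 of untreated wild type, replicate 1 of wild type with lysate or either Ythdf1-/- lysate replicate, and the averaged call of Psmb8 without any one of the same 4 libraries.

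Among the 3 catalytic subunits of the constitutive core, 1 was called for lysate in wild type (21.5% of all genes were). In Ythdf1-/- labelled cells 0 were (15.2% of all genes were). Psmb6 carries the caspase-like site and is the subunit that Psmb9 replaces. It had 10.91 and 11.08 in wild type with lysate against 10.57 and 10.70 untreated, which is a rise of 0.36 ± 0.08 (1.28-fold, limma adjusted p = 0.00616). In Ythdf1-/- labelled cells it had 10.68 and 10.76 with lysate against 10.83 and 10.75 without, a change of -0.07 ± 0.08 (adjusted p = 0.589). The wild-type groups did not overlap, and the Ythdf1-/- labelled groups did. The wild-type call was lost without replicate 2 of the lysate group (adjusted p = 0.057). The difference between these lysate effects was -0.43 ± 0.11, the lowest of the 46 genes, with an adjusted p of 0.282.

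Psmb5 and Psmb7, the chymotrypsin-like and trypsin-like subunits, were not called. Psmb5 had 9.84 and 9.94 in Ythdf1-/- labelled cells with lysate against 9.83 and 9.71 without, and 9.88 and 10.28 in wild type with lysate against 9.89 and 10.04 without. Its changes were 0.12 ± 0.11 in both genotypes. The 2 wild-type lysate libraries differed by 0.40, the widest replicate gap of that group over the 46 genes. Psmb7 had changes of 0.03 ± 0.07 in Ythdf1-/- labelled cells and 0.16 ± 0.07 in wild type. Of the remaining beta subunits, Psmb3 had -0.24 ± 0.09 in Ythdf1-/- labelled cells (limma adjusted p = 0.0932) and Psmb4 had -0.08 ± 0.11 in wild type, the lowest beta-ring changes of each genotype.

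In the alpha ring 1 of 8 genes was called for lysate in each genotype. The share of all genes called was 15.2% in Ythdf1-/- labelled cells and 21.5% in wild type. The alpha gene called was Psma7 in both. Its levels were 10.84 and 10.85 in Ythdf1-/- labelled cells with lysate against 11.17 and 11.10 without, and 10.60 and 10.80 in wild type with lysate against 11.00 and 11.01 without. No groups overlapped within a genotype. Psma7 fell by 0.29 ± 0.07 in Ythdf1-/- labelled cells (0.82-fold, limma adjusted p = 0.0214), and its change in wild type was -0.30 ± 0.07 (0.814-fold, adjusted p = 0.0138). The other 6 alpha subunits of somatic cells each had a positive change in wild type, of 0.02 to 0.21. Psma3 had the highest, with 0.19 ± 0.10 in Ythdf1-/- labelled cells and 0.21 ± 0.10 in wild type, and it was called in the average over genotypes but in neither genotype alone (0.20 ± 0.07, adjusted p = 0.0396), as was Psma4 (0.16 ± 0.05, adjusted p = 0.027). The Psma7 call was lost in Ythdf1-/- labelled cells without replicate 1 of the untreated group or without either lysate replicate, and in wild type without replicate 2 of the untreated group or replicate 1 of the lysate group. The averaged calls of Psma3 and Psma4 were both lost without replicate 2 of either wild-type group, without replicate 1 of untreated Ythdf1-/- or without either Ythdf1-/- lysate replicate. That of Psma3 was also lost with a replicate block, without the variance trend and with the GC content and length trend taken out.

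Most Psmc and Psmd subunits of the 19S regulatory particle had a positive change in wild type. Of the 17 that the symbol rule takes in, which leave out the 19S subunits Adrm1 and Sem1, 0 were called in Ythdf1-/- labelled cells (15.2% of all genes were), 10 were positive (as were 5863 of the 11785 genes tested) and the median was 0.03. In wild type 3 of the 17 rose (10.2% of all genes did), 0 fell (11.3% of all genes did) and 16 were positive (as were 5636 of the 11785), with a median of 0.14. The ubiquitin receptor Adrm1 had -0.06 in Ythdf1-/- labelled cells and -0.05 in wild type, and Sem1 is given with the partners. The 3 that rose are all non-ATPase subunits. Psmd1, the large scaffold that binds ubiquitin receptors, had 10.96 and 10.98 in Ythdf1-/- labelled cells with lysate against 10.78 and 10.78 without, and 11.12 and 11.19 in wild type with lysate against 10.85 and 10.84 without. In both genotypes the lysate libraries lay above the untreated ones, with replicates closer together than the groups. Its change was 0.19 ± 0.06 in Ythdf1-/- labelled cells (limma adjusted p = 0.0598) and 0.31 ± 0.06 in wild type (1.24-fold, adjusted p = 0.00486), and the wild-type call held under all 21 other settings.

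Psmd14 encodes Rpn11, the deubiquitinase that cuts ubiquitin chains from the substrate at the mouth of the particle. It had 9.65 and 9.58 in Ythdf1-/- labelled cells with lysate against 9.38 and 9.49 without, and 9.68 and 9.78 in wild type with lysate against 9.47 and 9.25 without. The groups did not overlap, and its wild-type rise of 0.37 ± 0.09 (1.29-fold, limma adjusted p = 0.00934) was the highest of the 46 genes. The change in Ythdf1-/- labelled cells was 0.18 ± 0.09 (adjusted p = 0.182). Psmd12, a subunit of the lid of the particle, had 9.83 and 9.72 in Ythdf1-/- labelled cells with lysate against 9.43 and 9.62 without, and 9.84 and 9.83 in wild type with lysate against 9.57 and 9.47 without. It rose by 0.32 ± 0.08 in wild type (adjusted p = 0.0157) and had 0.25 ± 0.08 in Ythdf1-/- labelled cells (adjusted p = 0.058). The wild-type call of Psmd14 was lost without replicate 2 of either wild-type group, and that of Psmd12 without replicate 2 of the untreated group or without either lysate replicate.

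**Figure D3:**
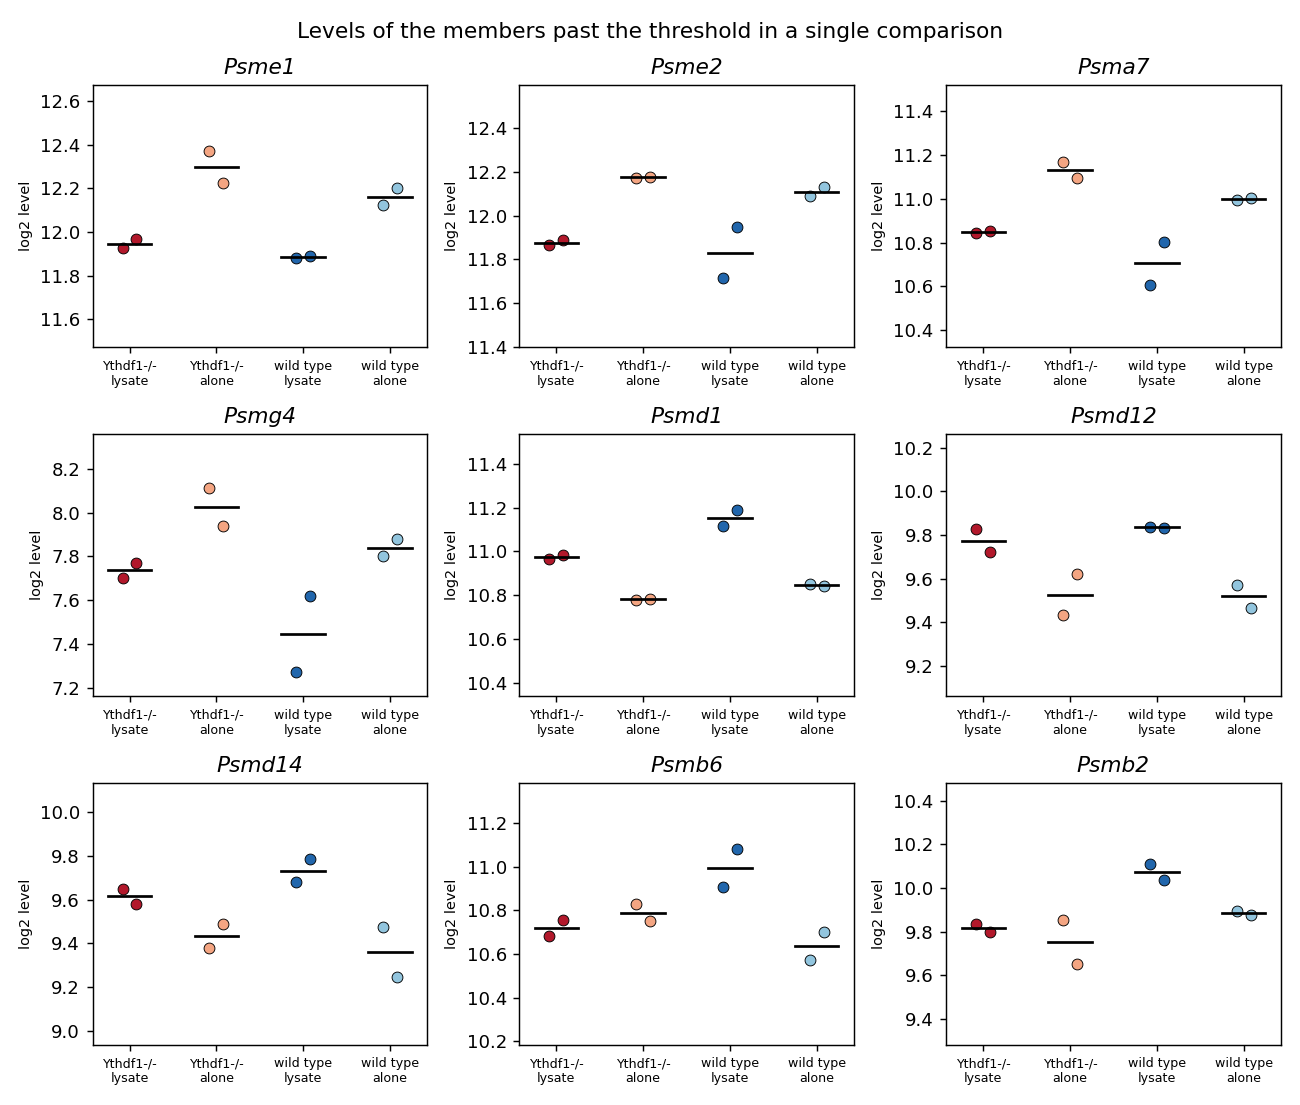
Levels (log2) in every library of the 9 genes called in at least 1 comparison of 2 groups, 1 panel per gene, with the 4 groups from left to right as Ythdf1-/- with lysate, Ythdf1-/- untreated, wild type with lysate and wild type untreated. Points are libraries, bars are means of 2 and each vertical axis spans 1.2 log2 units; Psme1, Psme2, Psma7 and Psmg4 sit lower with lysate, and Psmd1, Psmd12 and Psmd14 sit higher.

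The lowest non-ATPase changes were those of the ubiquitin receptor Psmd4, at -0.15 ± 0.07 in Ythdf1-/- labelled cells and -0.05 ± 0.07 in wild type, neither called. Psmd8, another lid subunit, rose in the average over genotypes (0.14 ± 0.05, limma adjusted p = 0.048), a call that held in 9 of 20 other settings and was lost without any one of 6 of the 8 libraries. None of the 6 ATPases was called for lysate in either genotype (15.2% of all genes were in Ythdf1-/- labelled cells, 21.5% in wild type). All 6 had positive changes in wild type, from 0.01 (Psmc3) to 0.21 (Psmc6), and 3 of 6 in Ythdf1-/- labelled cells, from -0.14 (Psmc4) to 0.17 (Psmc6). Psmc6 rose in the average (0.19 ± 0.06, adjusted p = 0.0222), a call lost without replicate 2 of either wild-type group, without replicate 1 of untreated Ythdf1-/-, without either Ythdf1-/- lysate replicate, and once the GC content and length trend was taken out.

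Of the 7 assembly chaperones, 1 was called for lysate in wild type (21.5% of all genes were) and 0 in Ythdf1-/- labelled cells (15.2% were). Psmg4 encodes a small protein that pairs with Psmg3 to build the alpha ring. It had 7.70 and 7.77 in Ythdf1-/- labelled cells with lysate against 8.11 and 7.94 without, and 7.27 and 7.62 in wild type with lysate against 7.80 and 7.88 without. The groups did not overlap, though the wild-type lysate libraries lay 0.35 apart. Its change was -0.29 ± 0.11 in Ythdf1-/- labelled cells (limma adjusted p = 0.0968) and -0.40 ± 0.11 in wild type (0.76-fold, adjusted p = 0.0226), and the wild-type call was lost without replicate 2 of the untreated group or replicate 1 of the lysate group. Psmg1 and its partner Psmg2, and Psmg3, had changes between -0.10 and 0.06 over both genotypes. The 19S chaperones Psmd5, Psmd9 and Psmd10 had changes from -0.24 (Psmd9 in Ythdf1-/- labelled cells) to 0.09 (Psmd5 in Ythdf1-/- labelled cells), none called. Of the 2 genes matched by symbol only, Psme3ip1 fell in the average over genotypes (-0.18 ± 0.05, adjusted p = 0.0194), a call lost without replicate 2 of untreated wild type, of wild type with lysate or of Ythdf1-/- with lysate. Psmc3ip, at a level of 4.08 to 4.29, had changes of 0.05 ± 0.09 in Ythdf1-/- labelled cells and 0.04 ± 0.09 in wild type.

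The genotype labels separated the proteasome genes little. Without lysate, limma called 0 of the 46 genes between Ythdf1-/- labelled and wild-type cells (against 16.2% of all genes, 7.02% higher and 9.23% lower). There were 2 at an unadjusted p below 0.05 (3364 of all 11785 genes), and changes ran from -0.19 (Psmb5) to 0.20 (Psmc4). With lysate 2 were called (4.35%, against 12.9% of all genes), both lower in Ythdf1-/- labelled cells (4.35%, against 5.45%), and 0 were higher (7.44% of all genes were). These were Psmb6, at -0.27 ± 0.08 (limma adjusted p = 0.0362), and the non-catalytic beta subunit Psmb2, at -0.25 ± 0.08 (adjusted p = 0.0484). Psmb2 had 9.84 and 9.80 in Ythdf1-/- labelled cells with lysate against 10.11 and 10.04 in wild-type cells with lysate. The groups did not overlap for either gene. The Psmb6 call was lost without replicate 2 of wild type with lysate, without either Ythdf1-/- lysate replicate, under quantile normalization, without the variance trend and with a replicate block, and the Psmb2 call in 11 of 21 other settings, among them each leave-out of a wild-type library or of a Ythdf1-/- lysate library.

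Below the threshold, the differences with lysate leaned 1 way. Of the 46 genes 37 were lower in Ythdf1-/- labelled cells (6125 of all 11785 genes were), with a median of -0.09 beside -0.01 over all genes. For 26 of the 46 (56.5%, against 31.0% of all genes) both Ythdf1-/- libraries lay below both wild-type libraries. For 4 genes (8.7%, against 29.6%) they lay above. All 17 Psmc and Psmd subunits of the 19S particle and all 7 beta subunits were among the 37, and the 4 Psmg genes were not. Replicate 2 of wild type with lysate moved with this lean. Its level was above that of replicate 1 for 37 of the 46 genes, by a mean of 0.11, and its mean level over the genes was 9.67, against 9.53 to 9.57 in the other 7 libraries. With the GC content and length trend taken out the median was -0.03. Without replicate 2 of wild type with lysate it was -0.06, neither Psmb2 nor Psmb6 was called, and Psmg4 was called higher. The differences between the lysate effects of the 2 genotypes had a median of -0.10, which was -0.03 without the same library and -0.04 with the trend taken out. Of these differences 38 of 46 were negative (5856 of all 11785 were). None of the 46 was called (0.11% of all genes were), with 2 at an unadjusted limma p below 0.05 (980 of all 11785 genes). These 3 contrasts share libraries and are not separate evidence.

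Genes around the proteasome were taken from 4 lists. Of 11 proteasome partners outside the symbol rule, 1 rose and 1 fell with lysate in Ythdf1-/- labelled cells, and 3 rose and 0 fell in wild type. Of all genes, 8.28% rose and 6.92% fell in Ythdf1-/- labelled cells, and 10.2% rose and 11.3% fell in wild type. The 3 that rose in wild type were Usp14 and Uchl5, the 2 deubiquitinases that dock on the 19S particle, and Zfand5, a zinc finger protein that activates the 26S complex. Uchl5 had 8.82 and 8.68 in Ythdf1-/- labelled cells with lysate against 8.40 and 8.43 without, and 8.93 and 8.92 in wild type with lysate against 8.59 and 8.31 without. It rose by 0.33 ± 0.10 in Ythdf1-/- labelled cells (limma adjusted p = 0.0329) and by 0.47 ± 0.10 in wild type (adjusted p = 0.00399). Usp14 had changes of 0.36 ± 0.12 in Ythdf1-/- labelled cells (adjusted p = 0.0534) and 0.53 ± 0.12 in wild type (adjusted p = 0.00612). Zfand5 had 0.30 ± 0.11 in Ythdf1-/- labelled cells (adjusted p = 0.0936) and 0.40 ± 0.11 in wild type (adjusted p = 0.0247). Each of these 3 wild-type calls was lost without replicate 2 of the untreated group, those of Usp14 and Zfand5 also without replicate 1 of the lysate group, and that of Zfand5 without replicate 2 of it or either Ythdf1-/- lysate replicate. The Ythdf1-/- call of Uchl5 was lost without replicate 1 of the untreated group or either lysate replicate. Psmd14, the deubiquitinase of the particle itself, was also called higher in wild type. The GC content of the transcript is 40.2% for Usp14, 39.9% for Uchl5 and 43.2% for Psmd14. Whether the 3 rose through shared control was not tested.

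Sem1, the smallest subunit of the 19S lid, was the partner that fell in Ythdf1-/- labelled cells. It had 10.59 and 10.63 in Ythdf1-/- labelled cells with lysate, against 10.88 and 10.88 in those without, and 10.93 and 11.02 in wild type with lysate against 10.94 and 11.11 without. Sem1 fell with lysate in Ythdf1-/- labelled cells (-0.26 ± 0.07, limma adjusted p = 0.0273) and not by the test in wild type (-0.04 ± 0.07), and the difference of these effects was -0.22 ± 0.10 (adjusted p = 0.606). The lysate call was lost without replicate 1 of untreated Ythdf1-/- or either Ythdf1-/- lysate replicate. With lysate it was lower in Ythdf1-/- labelled than in wild-type cells (-0.37 ± 0.07, adjusted p = 0.0065), a call lost without replicate 2 of wild type with lysate or either Ythdf1-/- lysate replicate and once the GC content and length trend was taken out. Pomp, the chaperone that matures the core, had -0.26 ± 0.10 in Ythdf1-/- labelled cells and -0.17 ± 0.10 in wild type, and fell in the average over genotypes (-0.22 ± 0.07, adjusted p = 0.0355), a call lost without replicate 2 of untreated wild type, replicate 1 of wild type with lysate, replicate 1 of untreated Ythdf1-/- or either Ythdf1-/- lysate replicate, and also with a replicate block and without the variance trend.

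Of 14 regulators of proteasome gene transcription, 1 rose and 1 fell with lysate in Ythdf1-/- labelled cells (8.28% and 6.92% of all genes did). In wild type 0 rose and 2 fell (10.2% and 11.3% of all genes did). Nfe2l1 encodes NRF1, the factor that raises proteasome genes when proteasome activity is short. It had 11.90 and 11.92 in Ythdf1-/- labelled cells with lysate against 12.05 and 12.06 without, and 11.91 and 11.87 in wild type with lysate against 12.06 and 12.09 without. Its change was -0.14 ± 0.06 in Ythdf1-/- labelled cells (limma adjusted p = 0.145) and -0.19 ± 0.06 in wild type (adjusted p = 0.047), a call that held in 5 of 21 other settings and was lost whichever library was left out. The averaged call (-0.16 ± 0.04, adjusted p = 0.0114) was lost without replicate 1 of Ythdf1-/- with lysate. Transcript level does not show NRF1 activity, which is known to be set by proteolytic processing of the protein.

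Stat3, a cytokine-activated factor, had 12.50 and 12.52 in Ythdf1-/- labelled cells with lysate against 12.81 and 12.72 without, and 12.23 and 12.29 in wild type with lysate against 12.63 and 12.71 without. It fell in both genotypes, with -0.25 ± 0.07 in Ythdf1-/- labelled cells (limma adjusted p = 0.0207) and -0.41 ± 0.07 in wild type (adjusted p = 0.000937), and with lysate it was higher in Ythdf1-/- labelled than in wild-type cells (0.25 ± 0.07, adjusted p = 0.0227). The last call was lost without any one of the 4 lysate libraries, and the Ythdf1-/- lysate call without replicate 1 of the untreated group or either lysate replicate. Nfya, a subunit of the factor that binds CCAAT boxes, rose in Ythdf1-/- labelled cells (0.21 ± 0.07, adjusted p = 0.0475) and had 0.18 ± 0.07 in wild type (adjusted p = 0.0663). Maff, a small partner of the NRF factors, fell in the average (-0.16 ± 0.06, adjusted p = 0.0413). These calls of Nfya and Maff held in 7 of 21 and 7 of 20 other settings and were lost whichever library was left out. In the average over genotypes Nfya was also called, with a rise of 0.19. That call held under each of the 20 other settings, with changes from 0.17 to 0.22.

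None of 4 ubiquitin and E1 genes was called for lysate in a single genotype (15.2% of all genes were in Ythdf1-/- labelled cells and 21.5% in wild type). In the average over genotypes the polyubiquitin gene Ubb fell (-0.14 ± 0.05, limma adjusted p = 0.0294), a call lost without replicate 2 of untreated wild type, replicate 1 of wild type with lysate, replicate 1 of untreated Ythdf1-/- or either Ythdf1-/- lysate replicate, and also without the variance trend and with a replicate block. Of 11 shuttle factors and VCP partners, 0 were called for lysate in Ythdf1-/- labelled cells, and 1 rose and 0 fell in wild type (10.2% and 11.3% of all genes did). Rad23b, which carries ubiquitinated proteins to the 19S particle, rose in wild type (0.45 ± 0.11, adjusted p = 0.0136) and had 0.31 ± 0.11 in Ythdf1-/- labelled cells (adjusted p = 0.0777). Its wild-type call was lost without replicate 2 of the untreated group or replicate 1 of the lysate group. Bag6, a holdase for misfolded proteins, fell in the average (-0.19 ± 0.07, adjusted p = 0.0397), a call that held in 9 of 20 other settings and was lost without any one of 6 of the 8 libraries.

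**Figure D4:**
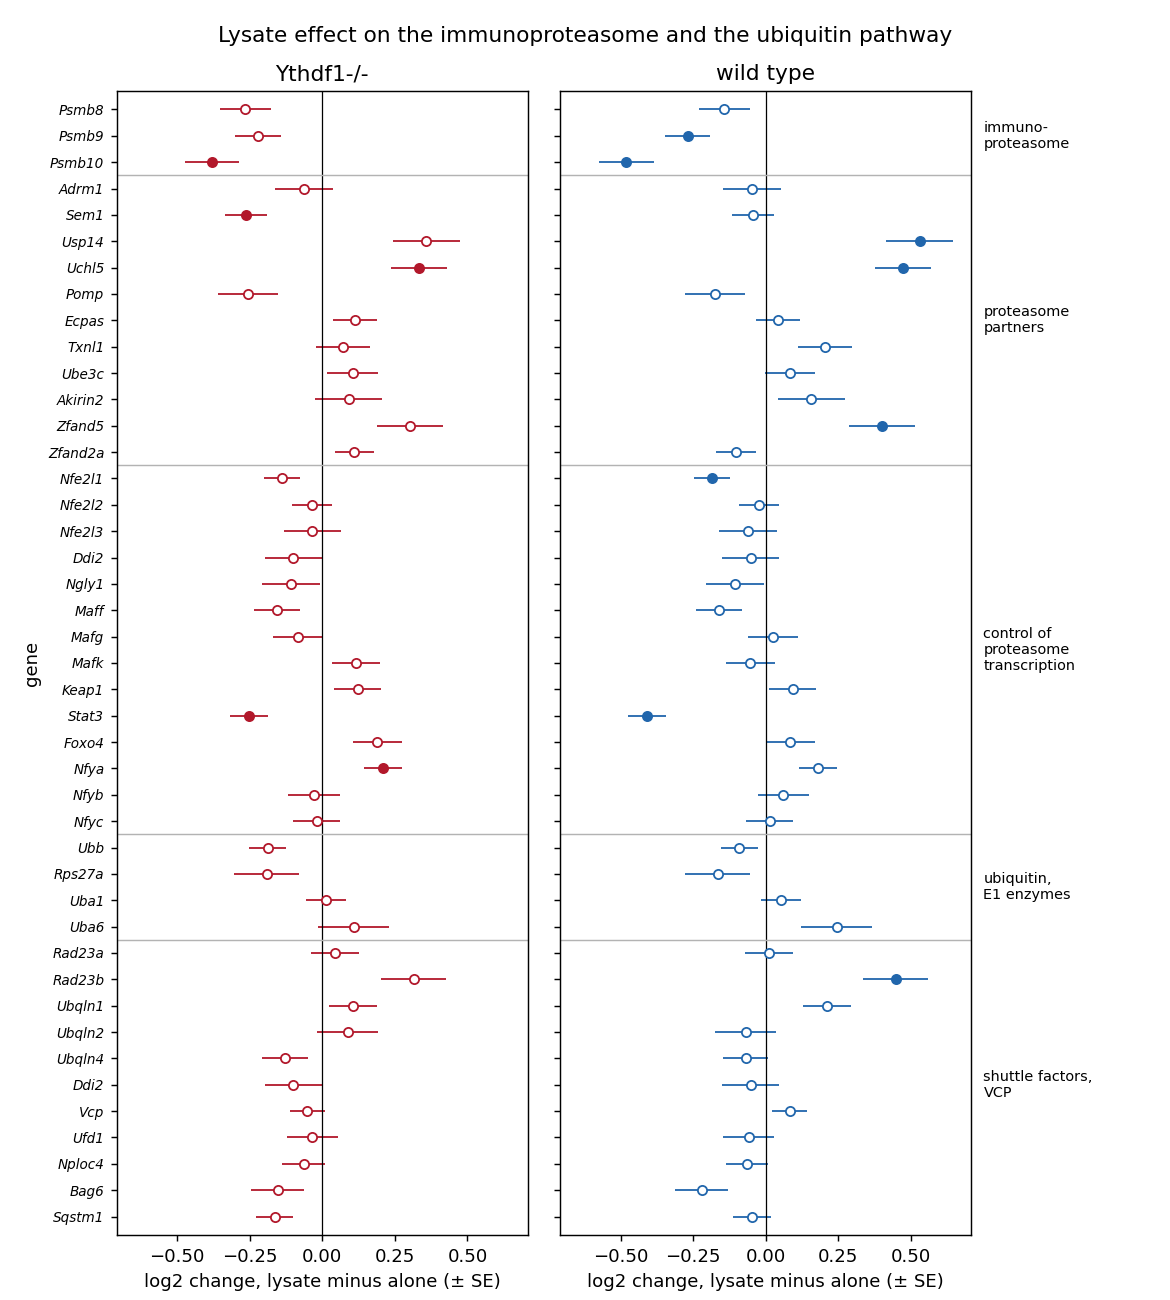
Change with lysate (log2, lysate minus untreated) of the immunoproteasome subunits and of genes in the 4 lists around the proteasome, in Ythdf1-/- labelled cells (left) and wild-type cells (right). Points are limma estimates with bars of ± 1 standard error (2 libraries per group), filled where the adjusted p is below 0.05; Psmb10 and Stat3 are filled left of 0 in both panels and Uchl5 right of 0 in both.

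The lysate changes of the 46 genes were lower where the transcript was richer in G and C. Across the genes, the Spearman rho between transcript GC content and the lysate change was -0.50 in Ythdf1-/- labelled cells and -0.44 in wild type. Over 11486 genes with a transcript the rho was -0.28 in Ythdf1-/- labelled cells and -0.39 in wild type, so the same relation ran through the whole table. The genes that rose in wild type include Psmd14, with a GC content of 43.2%, Psmd12 at 44.3% and Psmd1 at 46.9%, while Psmb6, which also rose, is at 55.8%. Those that fell are at 51.6% (Psma7), 51.6% (Psme2), 54.9% (Psme1) and 55.2% (Psmg4). Once the GC content and length trend of each library was taken out, 11 genes were called in Ythdf1-/- labelled cells (23.9%, against 26.03% of all genes) and 14 in wild type (30.4%, against 29.3%), and these included all 3 and all 8 of the genes named above.

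**Figure D5:**
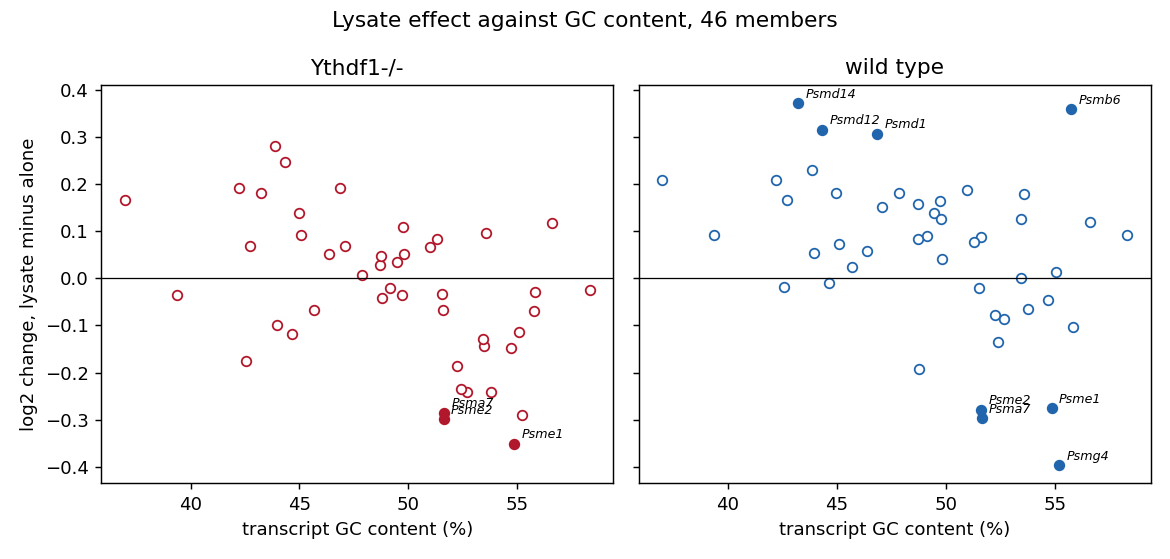
Lysate change (log2, lysate minus untreated) against transcript GC content (percent) for the 46 genes, in Ythdf1-/- labelled cells (left) and wild-type cells (right). Each point is a gene, filled where its limma adjusted p is below 0.05; the points slope downwards, with a Spearman rho of -0.50 on the left and -0.44 on the right.

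Promoters of the group were searched for motifs of known proteasome regulators. The RefSeq promoter table (GRCm38.p6) had entries for 38 of the 46 genes, 42 promoters in all, with none for Psma8, Psmb1, Psmb2, Psmb7, Psmc3, Psmd3, Psmd7 and Psmg2. Each window was the 250 bases before the start, read on both strands. The antioxidant response element TGACNNNGC, the site class bound by NRF1 and NRF2, matched in 5 of 42 promoters (11.9%, against 10.2% of 32851 promoters in the table), those of Psmb5, Psmb6, Psmc6, Psmd9 and Psmd12. The CCAAT box matched in 14 (33.3%, against 33.8%). The interferon-stimulated response element matched in 3 (7.14%, against 2.98%), those of Psmb3, Psmd4 and Psmd9, and the interferon-gamma activated site TTCNNNGAA in 1 (2.38%, against 7.02%), that of Psmg1. Overlaps between matches of different motifs were kept. A match is a description of the sequence and was not tested for binding.

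Of the 4 genes that rose in wild type, Psmb6 and Psmd12 hold the antioxidant response element. Psmb5, Psmc6 and Psmd9 also hold it and were not called for lysate in wild type, with changes of 0.12, 0.21 and -0.09. Psmb6 and Psmd12 are shown with the match in capitals, as the 250 bases before the start on the plus strand of chromosome 11 (GRCm38.p6, chr11:70525107-70525356 for Psmb6 and chr11:107479278-107479527 for Psmd12). In Psmb6 the match is TGACGGAGC, 9 to 1 bases before the start, and in Psmd12 it is on the reverse strand and reads GCTGTGTCA, 247 to 239 bases before the start.
Psmb6: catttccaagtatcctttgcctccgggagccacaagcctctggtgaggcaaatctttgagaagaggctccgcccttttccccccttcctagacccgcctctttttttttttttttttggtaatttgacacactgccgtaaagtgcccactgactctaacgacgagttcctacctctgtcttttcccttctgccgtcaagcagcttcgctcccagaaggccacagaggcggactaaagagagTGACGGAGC
Psmd12: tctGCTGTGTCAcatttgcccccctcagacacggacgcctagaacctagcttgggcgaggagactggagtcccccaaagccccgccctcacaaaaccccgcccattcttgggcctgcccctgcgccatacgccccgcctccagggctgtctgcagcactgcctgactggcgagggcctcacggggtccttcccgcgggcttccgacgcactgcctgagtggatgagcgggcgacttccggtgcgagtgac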

How the data were processed

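RNA was extracted with Trizol and libraries were made with a stranded mRNA kit, per the labels' protocols. The 12 samples include 4 immunoprecipitation samples, not analysed here. The 8 other libraries were grouped by sample title. Nothing in the labels places the 2 libraries of a group in separate mice, so the spread behind each p-value may be technical. The authors deposited log2 values per Entrez gene, read here as DESeq2 regularized logs from the table name and the submitters' processing notes, which also name STAR, deepTools and build mm9. This transform shrinks low genes towards their mean. Depth is unknown, so no counting error is given.

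Symbols, and the length and GC content of transcripts, were taken from GRCm38 annotations, which differ from the build of the files. Genes with a largest group mean of at least 4 were tested (11785, 1 removed) with limma 3.58.1 in R 4.3.3, on 4 group means with a mean-variance trend, two-sided, with Benjamini-Hochberg adjustment. The fit had 4 residual and 9.33 prior degrees of freedom and was tested on simulated data. Named genes were all those past the threshold of 0.05 in any of 6 contrasts, the highest and lowest lysate change of each role, the catalytic subunits, all measured Psme, Psmf and Psmg genes, genes of the lists past the threshold, Nfe2l1, Pomp, Ythdf1, Dct and Tyrp1. The members and lists were chosen with earlier results of these data known. Of the lists, 2 genes are not reported here. Alternatives covered filters, normalization, variance models, a replicate block, GC content, thresholds and leaving out each library; a group left with 1 library took its spread from the other groups. Figures used Python 3.11.15.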

Additional observations from a re-analysis of the deposited data

How the results depend on the processing

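Without the GC content and length trend, 14 of the 46 genes were called for lysate in wild type (8 in the fit reported), 11 for lysate in Ythdf1-/- labelled cells (3), 5 for Ythdf1-/- against wild type untreated (0: Psma7, Psmb6, Psmc4, Psme1 and Psmg4, all higher), 6 for that contrast with lysate (2), 1 for the difference of lysate effects (0: Psmb6) and 21 for the averaged lysate effect (13). Of all genes, 29.3%, 26.03%, 27.9%, 23.7%, 1.12% and 41.8% were then called in these contrasts, so the shares of all genes also moved. With the replicate block as well these counts were 13, 10, 5, 5, 1 and 20 (27.9%, 24.5%, 26.5%, 21.7%, 0.87% and 40.6% of all genes). The replicate block alone gave 0 for Ythdf1-/- against wild type with lysate (9.22% of all genes) and stayed within 1.5 times elsewhere. Replicate numbers do not pair the libraries alike across groups. Correlations of replicate differences between groups ran from -0.61 (untreated wild type and untreated Ythdf1-/-) to 0.26 (wild type untreated and with lysate). Genes higher in replicate 1 than 2 of untreated wild type thus tended to be lower in replicate 1 than 2 of untreated Ythdf1-/-. With the numbers of untreated Ythdf1-/- libraries crossed, chosen after seeing the data, the counts were 14, 10, 1, 6, 1 and 17 (31.8%, 24.8%, 23.3%, 22.4%, 0.46% and 43.5% of all genes). At a threshold of 0.01 they were 3, 1, 0, 0, 0 and 7 (9.69%, 6.44%, 8.11%, 4.46%, 0.0085% and 20.1% of all genes). At 0.1 they were 13, 9, 0, 4, 0 and 18 (30.2%, 22.2%, 22.1%, 20.6%, 0.18% and 43.1% of all genes). Quantile normalization left 1 gene (12.3% of all genes) and a fit without the variance trend 0 (11.5%) for Ythdf1-/- against wild type with lysate. The causes were not tested. Leaving out 1 library gave 2 to 9 calls for lysate in wild type, 0 to 8 for lysate in Ythdf1-/-, 0 to 1 for Ythdf1-/- against wild type untreated (Psmc4), 0 to 3 for that with lysate, 0 to 0 for the difference and 7 to 15 for the average. In the leave-out fits with the fewest calls for lysate in each genotype, the share of all genes called was also lower than in the fit reported. The calls lost there were thus not confined to the 46 genes. Filters and median centring kept every count within 1.5 times. Fitting only the groups compared gives no value for the difference or the average, which need all 4 groups.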
